A study of Homo sapiens with 12 samples.

Results

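Nucleotide excision repair was described through 21 probe sets of 10 genes, ERCC1, ERCC2, ERCC3, ERCC4, ERCC5, ERCC6, ERCC8, XPA, XPC and RAD23B, among 54675 probe sets and 19775 annotated genes of the array. The members were all probe sets that the array annotation assigned to exactly 1 of these genes, and 16 of the 21, covering all 10 genes, averaged at least 4 (log2) across the 12 arrays and were tested. Messenger RNA was measured on Affymetrix arrays in HK-2 cells, an immortalised epithelial line from the proximal tubule of the human kidney. Cells were seeded in 6-well plates and exposed near confluency, for 24 h or 48 h, to what the labels name Aa, at a dose called low, or to its control vehicle. The 4 groups were Aa at 24 h, control at 24 h, Aa at 48 h and control at 48 h, with 3 arrays each that the labels call biological replicates. All 4 groups were the same cell line in the same medium with EGF, hydrocortisone, insulin, transferrin and selenite. The sources used here give neither the full name and numeric dose of Aa nor its vehicle, and nothing says how the replicate cultures differed, so the p-values measure the spread between these arrays.

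Nucleotide excision repair removes bulky lesions from DNA, such as those left by ultraviolet light and by compounds that form adducts with bases. In one branch XPC, held by RAD23B, senses a distorted helix anywhere in the genome. In the other, RNA polymerase II halts at a lesion in a transcribed gene and calls ERCC6 (CSB) and ERCC8 (CSA). Both branches then bring in TFIIH, whose helicases ERCC3 (XPB) and ERCC2 (XPD) open the DNA, and XPA, which checks the damage. ERCC5 (XPG) cuts on the 3′ side and the ERCC1-ERCC4 (XPF) pair on the 5′ side, after which the gap is filled and sealed. Tubule cells of the kidney take up many drugs and toxins from blood and filtrate, so they meet DNA-reactive compounds often.

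The start regions of the members with the largest changes are shown because 1 of them, ERCC1, has several annotated starts and probe sets that moved in opposite directions, while ERCC2 and ERCC4 also had a probe set that changed at least 1.87-fold. Sequences and coordinates are those of RefSeq on GRCh38.p14, from 250 bases before to 50 after a start, written 5′ to 3′ on the gene's strand. All 10 genes matched, with 15 windows between them. RAD23B also has 3 windows and ERCC6 has 2, and any link between the number of starts and the changes of probe sets was not tested. Capitals mark the GC box, spelled GGGCGG, and the box spelled CCAAT, searched on both strands. ERCC1 has 3 windows, all on the minus strand, given from the most upstream on.
ERCC1 chr19:45451498-45451797: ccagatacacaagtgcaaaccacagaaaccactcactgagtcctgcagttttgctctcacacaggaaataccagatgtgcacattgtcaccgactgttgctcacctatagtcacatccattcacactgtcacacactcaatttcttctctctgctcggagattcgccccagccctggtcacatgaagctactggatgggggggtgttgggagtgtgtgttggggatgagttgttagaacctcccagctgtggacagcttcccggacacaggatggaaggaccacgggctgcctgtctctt
ERCC1 chr19:45423868-45424167: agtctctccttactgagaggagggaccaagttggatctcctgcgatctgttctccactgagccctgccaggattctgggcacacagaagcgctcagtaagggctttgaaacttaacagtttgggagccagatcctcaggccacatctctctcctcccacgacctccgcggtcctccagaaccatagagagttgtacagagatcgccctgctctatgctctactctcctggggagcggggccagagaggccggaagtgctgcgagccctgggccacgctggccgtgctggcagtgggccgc
ERCC1 chr19:45423479-45423778: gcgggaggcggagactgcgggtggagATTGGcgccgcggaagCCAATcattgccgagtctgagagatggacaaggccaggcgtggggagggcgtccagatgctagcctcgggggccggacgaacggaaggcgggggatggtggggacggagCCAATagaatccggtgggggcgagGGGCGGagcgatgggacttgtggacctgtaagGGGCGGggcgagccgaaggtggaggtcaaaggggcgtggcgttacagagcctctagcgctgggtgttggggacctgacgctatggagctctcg
ERCC2 chr19:45370524-45370823 (minus strand): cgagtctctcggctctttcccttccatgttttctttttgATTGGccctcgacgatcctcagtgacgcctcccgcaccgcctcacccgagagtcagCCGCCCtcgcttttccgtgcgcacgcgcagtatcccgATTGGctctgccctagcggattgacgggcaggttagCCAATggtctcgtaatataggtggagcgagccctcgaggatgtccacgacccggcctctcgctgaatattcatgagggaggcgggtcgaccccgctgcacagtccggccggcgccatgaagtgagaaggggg
ERCC4 chr16:13919904-13920203 (plus strand): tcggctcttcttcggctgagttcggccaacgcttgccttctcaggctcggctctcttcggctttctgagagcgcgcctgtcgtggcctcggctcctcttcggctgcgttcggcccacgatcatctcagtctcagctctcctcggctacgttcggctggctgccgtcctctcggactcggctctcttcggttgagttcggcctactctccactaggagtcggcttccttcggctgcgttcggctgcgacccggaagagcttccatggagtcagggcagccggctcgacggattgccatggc
The last ERCC1 window held 2 GC boxes and 3 CCAAT boxes, and the ERCC2 window 1 and 3, while the other 3 windows shown held none. GC content was 52.3%, 60.0% and 67.0% in the ERCC1 windows, 61.7% in that of ERCC2 and 63.7% in that of ERCC4. Over all 10 genes 8 had a window with GGGCGG, 4 one with CCAAT, 0 one with the TATA box (spelled TATAAA) and 1, ERCC6, one with the E box (spelled CACGTG). Counted by window these were 9, 4, 0 and 1 of 15. Of all 35116 windows given by RefSeq, GGGCGG was in 45.0%, CCAAT in 34.6%, TATAAA in 11.5% and CACGTG in 7.26%, and the median GC content was 58.7%. These matches describe letters in the windows only, and where the probes of each set lie within the genes was not analysed here.

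The arrays were alike, with medians of 2.93 to 3.01 and Pearson's r across probe sets of 0.994 to 0.997 within groups. Of 10 proximal tubule markers measured, PAX8 and CDH6 were past the filter, and the other 8, LRP2 and CUBN among them, had means of 2.09 to 3.03, so most defining markers of the labelled cell type were not above the filter. All 5 epithelial markers and 3 of 5 fibroblast markers (COL1A1, DCN and LUM) were past it, but 0 of 4 endothelial and 0 of 4 leukocyte markers. The group means of the proximal tubule markers summed to 44.4 in Aa and 45.1 in control at 24 h, and to 42.8 in Aa and 44.9 in control at 48 h, when PAX8 and CDH6 fell (adjusted p = 0.0129 and 0.00109 in limma). Those of the epithelial markers summed to 56.1 in Aa and 58.0 in control at 24 h, when KRT19 fell (adjusted p = 0.0151), and to 57.4 in either group at 48 h. Those of the fibroblast markers summed to 34.4 in Aa and 36.0 in control at 24 h, when COL1A1 fell (adjusted p = 0.0290), and to 34.5 in Aa and 34.9 in control at 48 h. Their part in the results below was not tested, and fewer cells of a kind and less RNA per cell cannot be told apart in such samples.

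After 24 h with Aa 7 of the 16 excision repair probe sets changed, 3 up and 4 down, and after 48 h again 7, with 4 up and 3 down. They belonged to 5 of the 10 genes at each time, where a gene counts if any of its tested sets changed. With each gene read only by its tested set of highest mean, 22.3% of all 10791 genes changed at 24 h and 36.1% at 48 h. Genes with several tested sets have more chances to count, so the 5 of 10 and these shares are not fully alike. The nuclease gene ERCC4 rose 2.52-fold and 2.99-fold on its 1 tested set. ERCC1, its partner, fell at least 2.41-fold on 2 probe sets while another rose at least 1.92-fold, and the helicase gene ERCC2 fell 2.42-fold on 1 set at 24 h. A probe set was called changed at a Benjamini-Hochberg adjusted p under 0.05 in limma over all 19623 probe sets tested, where 22.3% were called at 24 h (10.9% up, 11.4% down) and 33.9% at 48 h (16% up, 17.9% down). Each change below is Aa minus control on the log2 scale, with its standard error (SE) from limma and n = 3 arrays a group. The share of called members, 43.8% at either time, rests on 16 probe sets that share genes, and the lists were chosen with earlier results known, so it is a description. The median change of the 16 was -0.02 at 24 h and -0.24 at 48 h, beside -0.03 and -0.01 over all probe sets tested. With the replicate number as a block 8 members changed at 24 h (background 39.7%) and 11 at 48 h (background 51.1%). Without replicate 1 in all groups the counts were 4 and 4, where 6.27% and 12.4% of all probe sets were called. Without replicate 3 they were 3 and 4, where 8.99% and 18.6% were called.

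**Figure D1:**
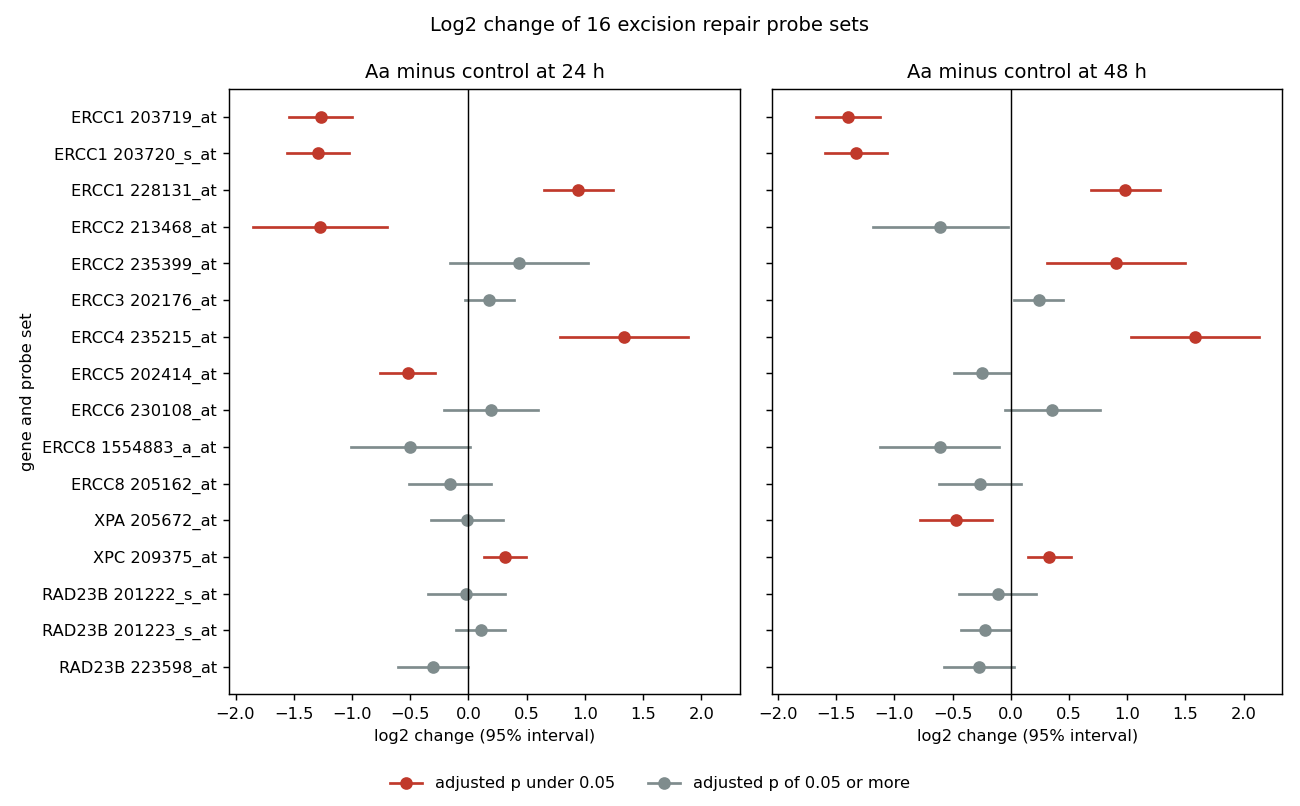
Log2 change (x axis, Aa minus control, points) with its 95% interval from limma (lines) for the 16 tested probe sets of excision repair genes (y axis) at 24 h and 48 h, in red where the adjusted p was under 0.05. ERCC1 sets 203719_at and 203720_s_at lie below -1 and set 228131_at near 1 at both times, with ERCC4 the furthest to the right.

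ERCC1 encodes the partner that holds the ERCC4 nuclease and places it on DNA. Probe set 203719_at read 7.48, 7.32 and 7.54 on the Aa arrays at 24 h, against 8.86, 8.65 and 8.62 on the control arrays. The 48 h values were 7.51, 7.50 and 7.53 with Aa, against 9.16, 8.81 and 8.77 in controls. All 3 Aa arrays thus lay below all 3 control arrays at both times, by a wide margin beside the spread within groups. The set fell by 1.27 (SE 0.12, adjusted p = 8.58e-05 in limma) at 24 h and by 1.40 (SE 0.12, adjusted p = 3.59e-05) at 48 h.

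The neighbouring ERCC1 set 203720_s_at read 8.02, 7.87 and 8.06 with Aa at 24 h, against 9.46, 9.07 and 9.31 in controls. At 48 h its values were 8.05, 7.95 and 8.06 with Aa, against 9.41, 9.19 and 9.46 in controls. Again the groups did not overlap. It fell by 1.29 (SE 0.12, adjusted p = 7.05e-05 in limma) and by 1.33 (SE 0.12, adjusted p = 4.35e-05), so both sets, which the annotation ties to the ERCC1 reference mRNA, moved alike. Its ending, _s_at, is the maker's mark for probes that can match more than one transcript.

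The third ERCC1 set, 228131_at, which the annotation ties to another sequence record, went the other way. It read 7.40, 7.33 and 7.18 with Aa at 24 h, against 6.36, 6.63 and 6.10 in controls, and 7.57, 7.62 and 7.56 with Aa at 48 h, against 6.75, 6.53 and 6.51 in controls. Every Aa array was above every control array of its time. The set rose by 0.94 (SE 0.13, adjusted p = 0.00081 in limma) and by 0.98 (SE 0.13, adjusted p = 0.000435). All 3 ERCC1 sets kept their call at both times without any one array. Among 5263 genes with at least 2 tested probe sets, 185 (3.52%) had called sets in both directions at 24 h and 179 (3.40%) at 48 h, and of the 4 members with several sets ERCC1 was 1 such gene at either time. The array thus gives no single direction for ERCC1, and which transcripts each set reads was not tested.

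**Figure D2:**
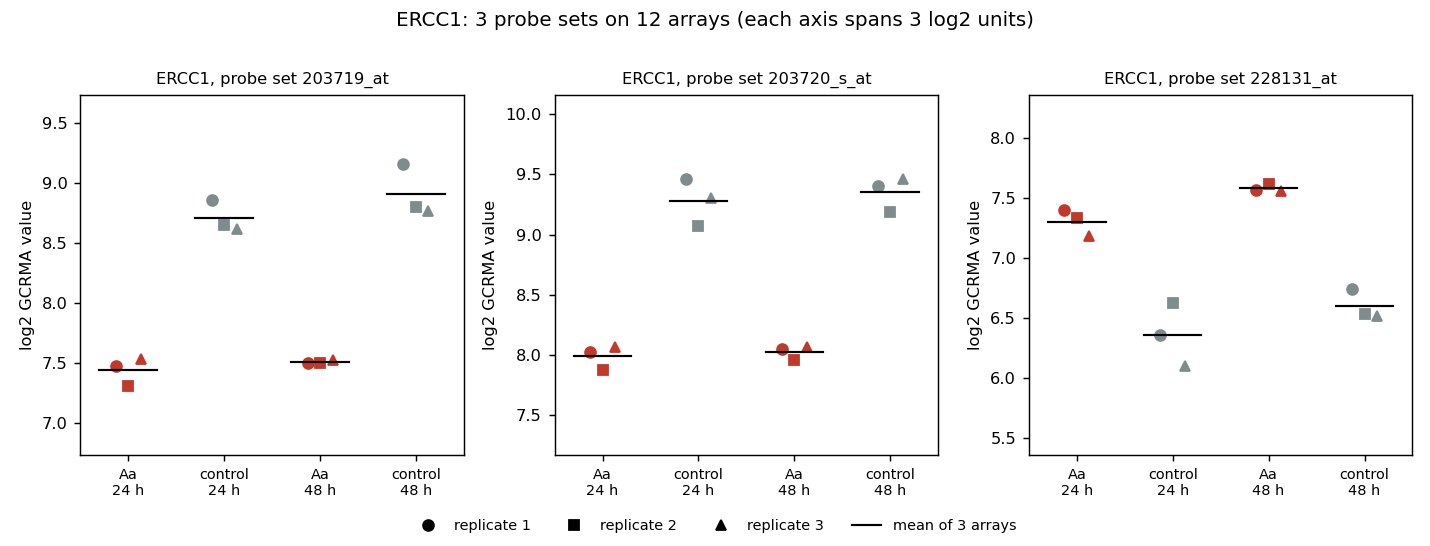
Log2 GCRMA value (y axis, 3 log2 units in every panel) of the 3 ERCC1 probe sets on each of the 12 arrays, by group, with 1 symbol per replicate number and a line at the mean of 3 arrays. Sets 203719_at and 203720_s_at are lower with Aa at both times, and set 228131_at is higher with Aa, with no overlap in any panel.

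Of the genes in the ERCC1 span of the GRCh38.p14 annotation, looked up after these values were seen, POLR1G, which encodes a subunit of RNA polymerase I, had 1 tested probe set. It read -0.06 (SE 0.16, adjusted p = 0.835 in limma) at 24 h and 0.27 (SE 0.16, adjusted p = 0.205) at 48 h as log2 changes, so neither passed the threshold. The genes whose log2 values followed ERCC1 set 203720_s_at most closely over the 12 arrays, among the brightest sets of 10791 genes, were KDM1B (r = 0.989), BCKDK (r = 0.984) and WDR13 (r = 0.982). All 3 were lower with Aa at both times, KDM1B with log2 changes of -2.52 and -2.32, so these correlations share the split between Aa and control arrays.

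ERCC4 encodes the nuclease that ERCC1 holds, which cuts the damaged strand on its 5′ side. Its set 235215_at read 7.49, 6.49 and 6.93 with Aa at 24 h, against 5.55, 6.04 and 5.32 in controls. After 48 h it read 7.72, 7.58 and 7.40 with Aa, against 6.24, 5.87 and 5.85 in controls. The Aa arrays were above the controls each time, and the 24 h Aa arrays were the most spread out, with replicate 2 the lowest. ERCC4 rose by 1.34 (SE 0.25, adjusted p = 0.00368 in limma) and by 1.58 (SE 0.25, adjusted p = 0.000983). Its other set, 210158_at, stayed under the filter, with group means of 2.10 with Aa and 1.96 in controls at 24 h and of 2.44 with Aa and 1.91 in controls at 48 h, so ERCC4 rests on 1 set. The record that the annotation lists for set 235215_at is not a RefSeq mRNA. The same holds for the ERCC1 set that rose and for the called sets of ERCC2 and XPC. It also holds for uncalled sets, among them ERCC8 set 1554883_a_at and RAD23B sets 201222_s_at and 223598_at. Whether the probes of these sets match a reference mRNA was not tested. The ERCC4 call at 24 h was lost without replicate 1 (adjusted p = 0.0735) or replicate 3 (adjusted p = 0.0842) in all groups, and kept without any one array.

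ERCC5 encodes the nuclease of the 3′ cut. It read 8.92, 8.80 and 8.89 with Aa at 24 h, against 9.32, 9.41 and 9.44 in controls, and fell by 0.52 (SE 0.11, adjusted p = 0.00591 in limma). At 48 h the values were 8.92, 9.21 and 9.04 with Aa, against 9.16, 9.42 and 9.35 in controls. These groups overlapped, although in 3 of 3 replicate pairs the Aa array was the lower one, and the change of -0.25 (SE 0.11, adjusted p = 0.0958) did not pass. With the replicate block it did (adjusted p = 0.0400), as it did without the Aa array of replicate 2 at 48 h (adjusted p = 0.0454). The 24 h call was lost without replicate 3 in all groups (adjusted p = 0.101). The incision genes thus held a rise on the only tested set of ERCC4, a fall of ERCC5 at 24 h and opposite moves within ERCC1.

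ERCC2 encodes the TFIIH helicase that unwinds DNA around the lesion, and its pair of probe sets also pulled apart. Set 213468_at read 6.66, 6.13 and 6.70 with Aa at 24 h, against 7.99, 7.24 and 8.09 in controls, and fell by 1.28 (SE 0.26, adjusted p = 0.00591 in limma). At 48 h it read 6.75, 6.75 and 6.76 with Aa, against 7.52, 6.87 and 7.70 in controls. The Aa arrays were again below all controls, but replicate 2 of the controls lay close to them and the change of -0.61 (SE 0.26, adjusted p = 0.0984) missed the threshold. It passed with the replicate block (adjusted p = 0.01002), without that control array (adjusted p = 0.0337) and without replicate 2 in all groups (adjusted p = 0.00372). At 24 h the call was lost without replicate 1 (adjusted p = 0.114) or replicate 3 (adjusted p = 0.0719) in all groups.

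The second ERCC2 set, 235399_at, read 6.80, 6.27 and 6.73 with Aa at 24 h, against 6.06, 6.00 and 6.44 in controls, groups that overlapped, with a change of 0.43 (SE 0.27, adjusted p = 0.286 in limma). After 48 h it read 6.86, 6.46 and 7.39 with Aa, against 5.54, 6.12 and 6.35 in controls, and rose by 0.90 (SE 0.27, adjusted p = 0.0244). All Aa arrays were above the controls at 48 h, by little for replicate 2. This call was lost without the Aa array of replicate 1 (adjusted p = 0.0579) or 3 (adjusted p = 0.0934) or the control array of replicate 1 (adjusted p = 0.0896), and with the 6 arrays of 48 h alone (adjusted p = 0.0690) or no filter (adjusted p = 0.0704). Without replicate 1 in all groups its adjusted p was 0.224, and without replicate 3 it was 0.0759. In the fit to all 12 arrays without the block, 1 ERCC2 set was called at each time. With the block 213468_at fell and 235399_at rose at 48 h (adjusted p = 0.00474 for the rise), and both were also called at 48 h without the 48 h control of replicate 2 (adjusted p = 0.0468 for 235399_at) and without replicate 2 in all groups (adjusted p = 0.0321).

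ERCC3, the other TFIIH helicase, read 8.96, 8.86 and 9.09 with Aa at 24 h, against 8.70, 8.84 and 8.83 in controls, and 8.93, 8.92 and 8.80 with Aa at 48 h, against 8.63, 8.71 and 8.59 in controls. Its Aa arrays were above all controls of the same time. Such groups without overlap, in either direction, were found for 11 of the 16 members at 24 h and 9 at 48 h, beside 40% and 45.5% of all probe sets tested. The changes were 0.18 (SE 0.10, adjusted p = 0.211 in limma) and 0.24 (SE 0.10, adjusted p = 0.0767) and did not pass. The later one passed with the block (adjusted p = 0.0465) and with no filter (adjusted p = 0.0430).

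XPC (the sensor of damage across the genome) read 8.75, 8.69 and 8.70 with Aa at 24 h, against 8.44, 8.44 and 8.32 in controls. The 48 h values were 8.64, 8.72 and 8.68 with Aa, against 8.28, 8.37 and 8.39 in controls. The groups were tight and did not overlap. XPC rose by 0.32 (SE 0.08, adjusted p = 0.0202 in limma), which is 1.24-fold, and by 0.33 (SE 0.08, adjusted p = 0.0116), which is 1.26-fold. The 24 h call was lost without the Aa array of replicate 1 (adjusted p = 0.0663) or 3 (adjusted p = 0.0518) or the control array of replicate 3 (adjusted p = 0.0796). Both calls were lost without any one replicate number in all groups and with the 6 arrays of the time alone (adjusted p = 0.0622 at 24 h and 0.0521 at 48 h).

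RAD23B, which keeps XPC stable, was read by 3 tested sets, and 0 of them passed at either time, while 1 and 1 had an unadjusted p under 0.05 and the block called 0. Set 223598_at read 10.46, 10.58 and 10.51 with Aa at 24 h, against 10.80, 10.68 and 10.97 in controls, a change of -0.30 (SE 0.14, adjusted p = 0.139 in limma). At 48 h its change was -0.27 (SE 0.14, adjusted p = 0.150). Set 201222_s_at had changes of -0.02 (SE 0.15) and -0.11 (SE 0.15), and set 201223_s_at of 0.11 (SE 0.09) and -0.22 (SE 0.09, adjusted p = 0.0924, and 0.0428 with an intensity trend). The 95% intervals of the 3 sets reached from -0.60 to 0.31 at 24 h and from -0.57 to 0.22 at 48 h.

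XPA, which binds the opened DNA and checks the damage, read 8.39, 8.39 and 8.43 with Aa at 24 h, against 8.50, 8.33 and 8.43 in controls, and its change was -0.01 (SE 0.14, 95% interval -0.32 to 0.29). At 48 h it read 8.12, 8.46 and 7.97 with Aa, against 8.69, 8.84 and 8.44 in controls, and fell by 0.47 (SE 0.14, adjusted p = 0.0246 in limma). The highest Aa array, replicate 2, was above the lowest control, so the groups overlapped, though the Aa array was lower in 3 of 3 replicate pairs. The call was lost without the 48 h Aa array of replicate 1 (adjusted p = 0.0774) or 3 (adjusted p = 0.0963), without the 48 h control of replicate 1 (adjusted p = 0.0658) or 2 (adjusted p = 0.0921), and with the 6 arrays of 48 h alone (adjusted p = 0.0922). Over all 25 alternative settings, a threshold of 0.01 among them, XPA lost its 48 h call in 8. The highest adjusted p in limma was 0.231. NCBP1, a cap-binding protein gene that overlaps the XPA span and was looked up after these values were seen, fell by 0.61 (SE 0.16, adjusted p = 0.0213) at 24 h and by 0.51 (SE 0.16, adjusted p = 0.0319) at 48 h on its 1 tested set.

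**Figure D3:**
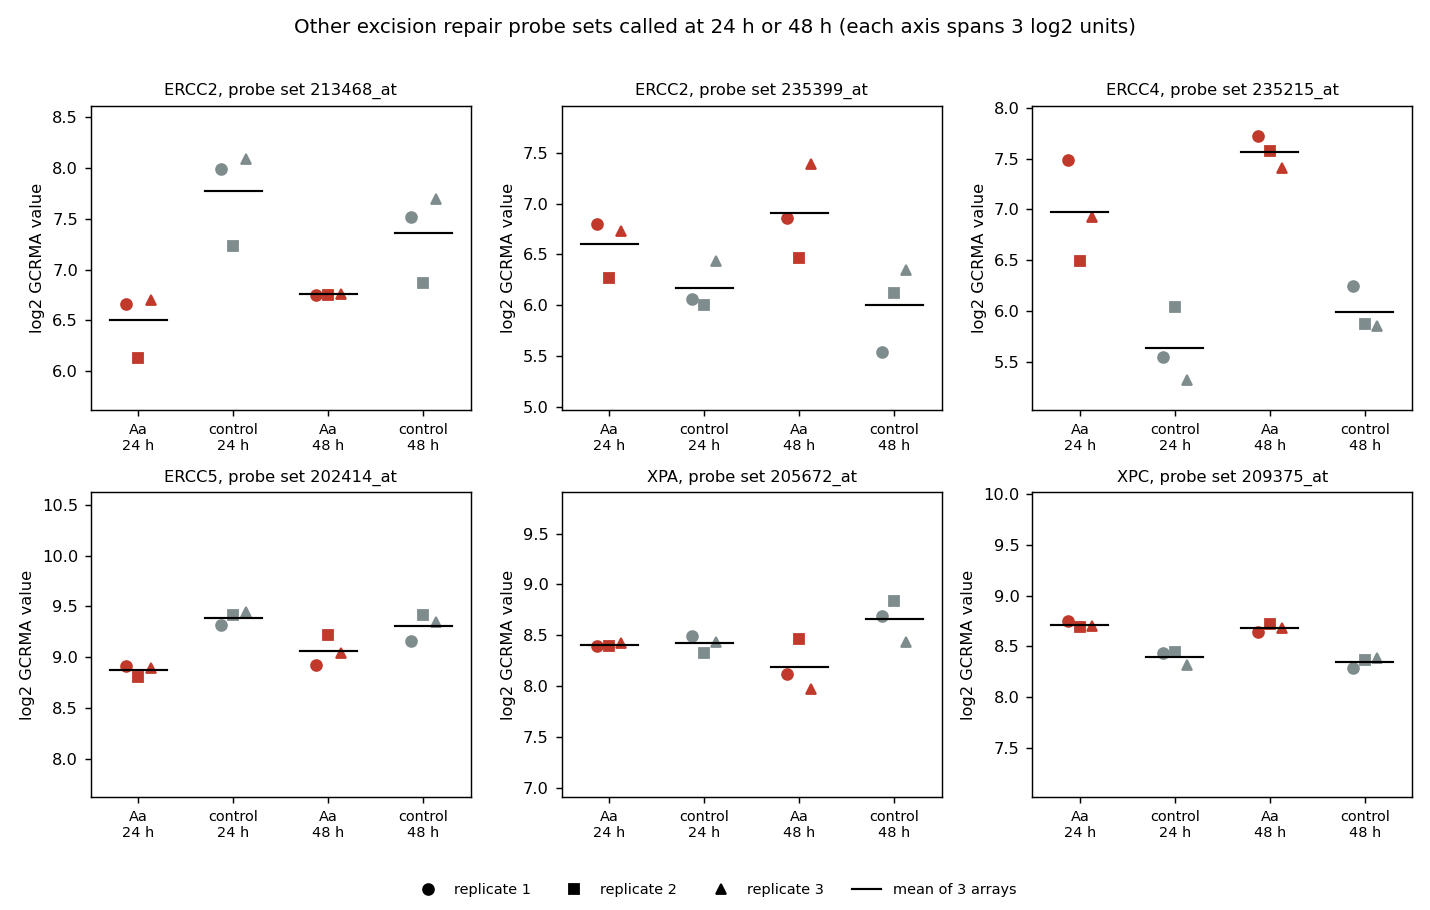
Log2 GCRMA value (y axis, 3 log2 units in every panel) of the other probe sets called at 24 h or 48 h on each array, by group, with 1 symbol per replicate number and a line at the mean of 3 arrays. ERCC4 is higher with Aa at both times, the ERCC2 sets move apart, XPC is higher with Aa at both times without overlap, and ERCC5 is lower at 24 h without overlap.

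Of the transcription-coupled members 0 of 3 tested sets passed without the block. ERCC8, an adaptor of a ubiquitin ligase that acts at the stalled polymerase, read 7.11, 7.55 and 7.57 with Aa at 24 h on set 1554883_a_at, against 7.65, 8.11 and 7.96 in controls. After 48 h it read 6.94, 7.56 and 7.48 with Aa, against 7.55, 8.33 and 7.93 in controls. Replicate 1 was the lowest in all 4 groups, the groups did not overlap at 24 h but did at 48 h, and the Aa array was lower in 3 of 3 replicate pairs at each time. The changes of -0.50 (SE 0.23, adjusted p = 0.153 in limma) and -0.61 (SE 0.23, adjusted p = 0.0641) did not pass, but with the replicate block both did (adjusted p = 0.00314 and 0.000713), and the later one also without the 48 h control of replicate 1 (adjusted p = 0.0311).

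The other tested ERCC8 set, 205162_at, had changes of -0.15 (SE 0.16, adjusted p = 0.541 in limma) and -0.26 (SE 0.16, adjusted p = 0.231), and the Aa array was again lower in 3 of 3 pairs each time. ERCC6, the ATPase that remodels the stalled polymerase, read 6.86, 6.81 and 6.48 with Aa at 24 h on set 230108_at, against 6.36, 6.73 and 6.48 in controls. The 48 h values were 6.85, 6.14 and 6.60 with Aa, against 6.01, 6.26 and 6.24 in controls. The groups overlapped at both times, and changes of 0.19 (SE 0.18, adjusted p = 0.503) and 0.36 (SE 0.18, adjusted p = 0.158) did not pass. Without the Aa array of replicate 2 at 48 h, the lowest of its group, the later change passed (adjusted p = 0.0264).

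The 5 member sets under the filter were 1 each of ERCC4, ERCC6 and RAD23B and 2 of ERCC8. ERCC6 set 207347_at lay just under it with a mean of 3.99, and the others had means of 2.10 to 3.52. In a fit with no filter their log2 changes ranged from -0.16 to 0.53, and none of the 5 passed at either time.

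The effect of Aa did not pass a test of change between the times for any of the 16 sets. In limma 0 of 16 were called for the difference of the Aa effects, 48 h minus 24 h, beside 0.392% of all probe sets (8.43% with the block), and 2 had an unadjusted p under 0.05. These were XPA (-0.46, SE 0.20, adjusted p = 0.359) and RAD23B set 201223_s_at (-0.33, SE 0.13, adjusted p = 0.326). With the block 0 were called too, and 3 had an unadjusted p under 0.05, the third being ERCC2 set 213468_at. That set had the largest difference of the 16, 0.67 (95% interval -0.15 to 1.49, adjusted p = 0.486, and 0.0904 with the block). The 95% interval of that difference was -0.51 to 0.25 for ERCC1 set 203719_at, -0.38 to 0.46 for set 228131_at and -0.54 to 1.03 for ERCC4. In control cells alone 0 of 16 were called for 48 h minus 24 h, with and without the block, beside 0.117% of all probe sets (14.5% with the block). Without the block 0 had an unadjusted p under 0.05, and with it 2 did. The log2 differences of controls ran from -0.41 for ERCC2 set 213468_at to 0.35 for ERCC4.

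The genes around these members were grouped into 5 lists by their step, each gene read by its brightest tested set, and 40 of 43 were tested. After 24 h 4 had risen and 5 had fallen, 22.5% of the 40, where the brightest sets of all 10791 genes gave 22.3% (9.96% up, 12.3% down). After 48 h 10 had risen and 5 had fallen, 37.5% of the 40, where all genes gave 36.1% (17% up, 19.1% down). These shares are near the background. The median changes were 0.06 and 0.16, beside -0.03 and -0.01 over all probe sets. Under the replicate block 22 were called at 24 h (13 up, 9 down), 55% of the 40, where all genes gave 40%. At 48 h the block called 21 (15 up, 6 down), 52.5% of the 40, where all genes gave 53.3%. How the 24 h share compares with all genes thus depended on the fit.

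Among 6 other damage recognition genes 2 fell at 24 h and none rose (4 fell under the block), while at 48 h 1 rose and 3 fell, with medians of -0.26 and -0.17. The called share was 33.3% and 66.7% of 6 genes (66.7% at both times with the block), beside the shares of all genes given above. CETN2, the centrin bound to XPC, fell by 0.30 (SE 0.09, adjusted p = 0.0303 in limma) and by 0.40 (SE 0.09, adjusted p = 0.00532). RBX1, the ring protein of the ubiquitin ligases that serve both branches, fell by 0.40 (SE 0.12, adjusted p = 0.0349) and by 0.35 (SE 0.12, adjusted p = 0.0449, and 0.0575 with no filter). CUL4B, a scaffold of those ligases, had a change of -0.26 (SE 0.09, adjusted p = 0.0716, and 0.0197 with the block) at 24 h, when its other 3 sets fell, and fell by 0.51 (SE 0.09, adjusted p = 0.00206) at 48 h, when all 4 of its sets did. DDB2, the lesion sensor that hands damage to XPC, was the gene that rose at 48 h, by 0.30 (SE 0.09, adjusted p = 0.0289), and is named after its value was seen.

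Among 7 TFIIH subunits 1 rose and 2 fell at 24 h (3 and 2 under the block), while at 48 h 3 rose and 2 fell, with medians of 0.24 and -0.10. The called share was 42.9% and 71.4% of 7 genes, beside 22.3% and 36.1% of all genes, and 71.4% at both times with the block, beside 40% and 53.3%. The core subunit gene GTF2H1 rose by 0.55 (SE 0.16, adjusted p = 0.0280 in limma) and by 0.45 (SE 0.16, adjusted p = 0.0466), calls that were lost with no filter (adjusted p = 0.0590 and 0.0913). CCNH, the cyclin of the kinase module, fell by 0.36 (SE 0.10, adjusted p = 0.0205) and by 0.40 (SE 0.10, adjusted p = 0.00981). GTF2H5, which encodes a small subunit that steadies the complex, fell by 0.40 (SE 0.09, adjusted p = 0.00989) at 24 h on its brightest set, while its sets 1558934_a_at and 244294_at rose by 1.38 (SE 0.25) and 1.31 (SE 0.34). At 48 h 1558934_a_at rose by 1.82 (SE 0.25, adjusted p = 0.000464) and the brightest set had -0.17 (SE 0.09, adjusted p = 0.177). These sets were picked out after their values were seen and, like those of ERCC1, give no single direction.

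Of 6 other transcription-coupled repair genes 0 changed at 24 h (ELOF1 rose with the block, adjusted p = 0.00779) and 1, ELOF1, rose at 48 h by 0.67 (SE 0.17, adjusted p = 0.0128 in limma). ELOF1 is an elongation factor that helps the stalled polymerase to be marked. HMGN1 and TCEA1, also named by rule, had changes of -0.15 and -0.0020 at 24 h and of 0.15 and -0.13 at 48 h. The list's medians were 0.02 and 0.11. Its called share was 0% and 16.7% of 6 genes, beside 22.3% and 36.1% of all genes. With the block it was 16.7% at both times, beside 40% and 53.3%. Of the 3 replication protein A genes, whose products cover single-stranded DNA, 0 changed at 24 h (RPA2 rose with the block, adjusted p = 0.0328). RPA2 rose at 48 h by 0.34 (SE 0.11, adjusted p = 0.0321), with list medians of 0.13 and 0.16. RPA1 and RPA3, also named by rule, had changes of 0.13 and 0.07 at 24 h and of 0.13 and 0.16 at 48 h. The called share was 0% and 33.3% of 3 genes (33.3% at both times with the block), beside the same shares of all genes.

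The gap filling and ligation list had 3 of 18 genes up and 1 down at 24 h (8 and 3 with the block), and 4 up and 0 down at 48 h (9 and 1 with the block), with medians of 0.18 and 0.22. The 4 called genes are 22.2% of the list at each time, beside 22.3% and 36.1% of all genes. With the block the called share was 61.1% and 55.6%, beside 40% and 53.3% of all genes. POLD3, a subunit of DNA polymerase delta, rose by 0.57 (SE 0.10, adjusted p = 0.00315 in limma) and by 0.56 (SE 0.10, adjusted p = 0.00246). POLE3, a histone-fold subunit of DNA polymerase epsilon, rose by 0.82 (SE 0.13, adjusted p = 0.000949) at 48 h (and at 24 h with the block, adjusted p = 0.0474), and the clamp loader gene RFC3 by 0.71 (SE 0.13, adjusted p = 0.00256). These genes are also known to serve DNA replication. RFC3 averaged 10.42 with Aa and 10.22 in controls at 24 h, and 10.51 with Aa and 9.80 in controls at 48 h. With the block 6 of the 18 genes of this list (33.3%) fell in control cells from 24 h to 48 h. Of all 19623 probe sets 2848 (14.5%) were called there in either direction, and 1520 of them fell. RFC3 (-0.42, adjusted p = 0.0114) and POLD3 (-0.30, adjusted p = 0.0411) were among the 6. With the block the difference of the Aa effects passed for RFC3 (0.51, adjusted p = 0.0283), 1 of the 18, beside 8.43% of all probe sets. Of the other lists' genes 1, the kinase gene CDK7 of TFIIH, rose in controls over time with the block (0.49, adjusted p = 0.00655). CDK7 is named after its value was seen. Without the block 0 of the 40 passed in either comparison.

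**Figure D4:**
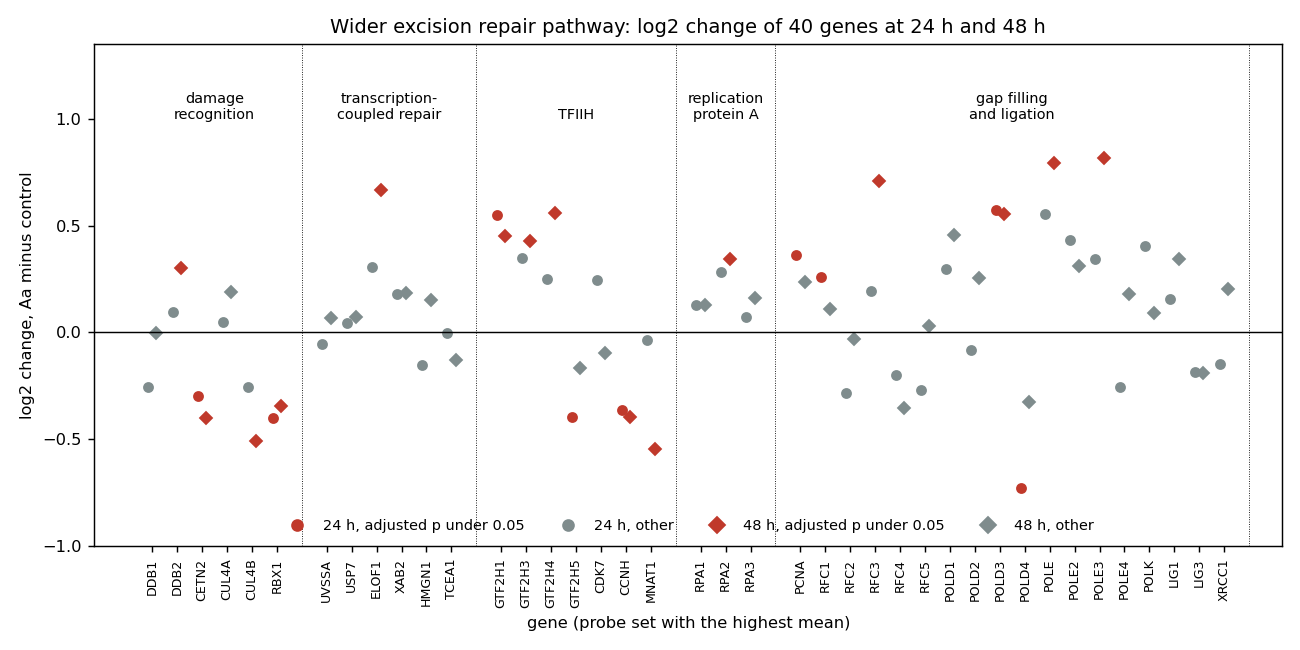
Log2 change, Aa minus control (y axis), of 40 genes of the wider excision repair pathway (x axis) in 5 lists, with circles for 24 h, diamonds for 48 h and red for an adjusted p under 0.05. Called genes lie on both sides of 0 in the damage recognition and TFIIH lists, and all 4 called at 48 h in the gap filling list lie above it.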

How the data were processed

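RNA of HK-2 cells was labelled with biotin and hybridised to Affymetrix arrays, per the labels' protocols. The deposited log2 values, 1 per probe set and array, were normalised by the authors with GCRMA, per the submitters' processing notes, with no version given there. They ran from 0.82 to 16.25. GCRMA pulls dim probe sets to a low floor, which can distort small values. The number of arrays limits the precision.

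Probe sets were named by the array's annotation: 41097 had 1 symbol, 1801 several and 11777 no entry. Through gene identifiers, control sets aside, 41037 probe sets were matched to GRCh38.p14 and took its current symbol, whether or not it differed. Control sets, sets with several symbols or no entry and those with a mean below 4 were left out, which left 19623. No build is named for the array. limma 3.58.1 in R 4.3.3 (lmFit, eBayes) fitted 4 group means to all 12 arrays (8 residual and 2.77 prior degrees of freedom), with two-sided tests and Benjamini-Hochberg adjustment over all 19623. The code was tested on simulated data.

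The 18 pairs of arrays with the same replicate number in different groups had residual correlations of 0.37 to 0.60. The 36 other pairs had -0.49 to -0.03. Residuals cancel within each group of 3 arrays, so these ranges are not independent of each other. From the positive range the numbers were taken to pair the arrays, as read from the data. The main fit leaves this pairing out, so its SEs include any spread that goes with the replicate number. The block is an alternative fit, given where it changed the call of a member or the count of a list. Members, lists and tests were chosen with earlier results of these data known. All members were named. From each wider list up to 3 genes with the smallest p at either time were named, and genes most like the member with the smallest p at 24 h by Pearson's r. Genes outside this rule are marked as such.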

Additional observations from a re-analysis of the deposited data

Results flagged for a closer look

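RAD23B set 201223_s_at had every Aa array above the controls at 24 h (11.88, 11.70 and 11.68, against 11.64, 11.63 and 11.67) and every Aa array below them at 48 h (11.51, 11.50 and 11.49, against 11.63, 11.85 and 11.68). The change of the Aa effect was -0.33 (SE 0.13), and its test did not pass in limma (adjusted p = 0.326, and 0.120 with the replicate block). Groups of 3 arrays were too small for a check on single outlying arrays.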

How the results depend on the processing

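The number of members called was 7 at each time. At 24 h it lay between 3 and 7 when replicates or single arrays were left out, and at 48 h between 4 and 9. Over all probe sets 6.27% to 23.1% were called at 24 h in those settings, and 12.4% to 34.1% at 48 h. With 1 probe set per gene (10 member sets tested) the 48 h number was 4, beside 37.8% of all genes. It was 4 with the 6 arrays of 48 h alone, beside 25.6% of all probe sets. At an adjusted p under 0.01 it was 4, beside 18.5%, and with the replicate block it was 11, beside 51.1%. For the difference of the Aa effects and for controls over time the number of members called was 0 in every setting run.

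Among the changes of single sets at either time, 723 values kept direction and side of the threshold, 34 no longer passed, 13 newly passed and 10 changed sign. The sign changes were of 2 uncalled sets at 24 h. XPA read 0.0221 with arrays centred on their medians, 0.0040 after quantile normalisation and -0.0592 to 0.0297 with replicates or arrays left out. RAD23B set 201222_s_at read 0.0178 with centring and -0.153 to 0.140 with replicates or arrays left out. The cause of the lost and gained calls was not tested. The block changed no member call other than those given in the report. Over all probe sets the block raised the calls from 4379 to 7795 at 24 h and from 6652 to 10037 at 48 h, from 77 to 1654 for the difference of effects and from 23 to 2848 for controls over time. Without replicate 1 they were 1230 and 2432, and without replicate 3 1764 and 3651, at 24 h and 48 h. At an adjusted p under 0.01 they were 2200 and 3626, with 1 set per gene 2494 and 4083 of 10791, and without shared-sequence sets 2819 and 3941 of 10936, where fewer sets were tested or the threshold was lower. Over all probe sets the calls for the difference of effects lay between 0 and 204, and for controls over time between 0 and 425, when replicates or arrays were left out.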

Other observations

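The array annotation assigned 1 further probe set, 232287_at, to both ERCC6 and PGBD3, a transposon-derived gene within ERCC6, so it was not among the members. It read 5.23, 4.56 and 5.05 with Aa at 24 h, against 4.57, 4.57 and 4.62 in controls, and 5.31, 4.64 and 4.63 with Aa at 48 h, against 4.67, 4.52 and 4.58 in controls. The groups overlapped at both times.

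Ligase gene LIG3 fell on 2 of its 5 tested sets at each time, although its brightest set, 1554599_x_at, was not called. At 24 h these were 207348_s_at (-1.28, SE 0.20, adjusted p = 0.00154 in limma) and 204123_at (-1.10, SE 0.16, adjusted p = 0.00109). At 48 h they were 207348_s_at (-0.66, SE 0.20, adjusted p = 0.0293) and 229861_at (-0.43, SE 0.10, adjusted p = 0.00892). LIG3 was picked out after its values were seen.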
